A study of Mus musculus with 12 samples.

Results

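The genes that make, inactivate and sense prostaglandins and leukotrienes were examined in ankle joints of mice with and without serum-transfer arthritis. Of the 10 genes of this set, a gene was represented by its array feature annotated with that symbol alone, and 9 had such a feature, each of them exactly 1, among the 28853 features of the array. These were Pla2g4a, Ptgs2, Ptges, Hpgd, Alox5, Alox5ap, Lta4h, Ltc4s and Ltb4r1, and each of the 9 was among the 18479 features tested. Ptgs1 had no feature under its symbol alone and was not analysed here.

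Transcripts of the whole ankle joint of 12 C57BL/6 mice were read on Affymetrix Mouse Gene 1.0 ST arrays, with 1 array per mouse. There were 3 mice per group and 4 groups, which were arthritic Mmp8-/- mice, Mmp8-/- control mice, arthritic Mmp8+/+ mice and Mmp8+/+ control mice, all male by the labels. Mmp8 encodes collagenase-2, an enzyme made mainly by neutrophils, and it was inactivated in the whole animal on a background crossed for 12 generations to C57BL/6. Arthritic mice received 150 µl of K/BxN serum intraperitoneally on day 0 and again on day 2, at 6 to 8 weeks of age, and were killed on day 7. Control mice were without arthritis, and the labels do not say whether they were given a vehicle or state their age. Serum of K/BxN mice carries autoantibodies that start a joint inflammation in recipient mice. Values are log2 signals after robust multi-array averaging (RMA), and a difference of 1 is a doubling. Because the whole joint was pulverised, fewer cells of a type and less RNA per cell cannot be told apart.

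Mmp8 itself was read first as a check of the labels. Its log2 signal was 4.64 to 5.54 in 5 of the 6 Mmp8-/- arrays and 10.21 to 11.16 in the 6 Mmp8+/+ arrays, but 10.65 in the array labelled Mmp8-/- control replicate 2. Xist, which is transcribed from the inactive X chromosome of female cells, read 10.92 in Mmp8-/- control replicate 1 and 10.42 in Mmp8+/+ control replicate 1, and 4.66 to 5.41 in the other 10 arrays. These 3 control arrays went against their labels in genotype or sex. Calls of the 9 genes, and of the other pathway genes named with their values, are therefore given with them and, where leaving out all 3 changed the call, without them. With all 3 left out, a single Mmp8-/- control array remained, which was assumed to vary like the other groups.

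Cytosolic phospholipase A2 frees arachidonic acid from membranes. Cyclooxygenases turn it into prostaglandin H2, which terminal synthases convert to prostaglandin E2 and the other prostanoids, and 15-hydroxyprostaglandin dehydrogenase inactivates prostaglandin E2. In the other branch 5-lipoxygenase, helped by its activating protein FLAP, makes leukotriene A4, from which leukotriene A4 hydrolase forms leukotriene B4, an attractant of neutrophils, and leukotriene C4 synthase forms the cysteinyl leukotrienes. Leukotriene B4 and its receptor BLT1 are known to be needed for arthritis after transfer of K/BxN serum in mice.

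In both genotypes the inducible cyclooxygenase gene Ptgs2 was over 5-fold higher in arthritic joints, and the dehydrogenase gene Hpgd was over 3-fold lower. Ltc4s was also lower in both genotypes, while the phospholipase gene Pla2g4a showed a difference close to 0. By limma with Benjamini-Hochberg adjustment over all 18479 features at 5%, 1 of the 9 measured genes was higher and 3 were lower in arthritic than in control Mmp8-/- mice, and 5 did not pass. Over all features, 7.92% were called higher and 13.7% lower in that comparison. Higher features made up 36.6% of those calls, against 48.6% after subtraction of each array's mean and 49.4% after a further quantile normalization. In Mmp8+/+ mice 1 gene was likewise higher, 3 were lower and 5 did not pass, beside 7.20% of all features called higher and 11.7% called lower. The genes called lower were Hpgd, Ltc4s and Alox5 in Mmp8-/- mice, and Hpgd, Ltc4s and Lta4h in Mmp8+/+ mice. Without the 3 doubted arrays 1 gene, Ptgs2, was still called in Mmp8-/- mice and 3, Ptgs2, Hpgd and Ltc4s, were called in Mmp8+/+ mice. The median log2 change of the 9 genes was -0.28 in Mmp8-/- mice and -0.52 in Mmp8+/+ mice, against medians of -0.01 and 0.01 over all features tested.

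Averaged over both genotypes, 2 of the 9 genes (Ptgs2 and Alox5ap) were higher and 4 (Hpgd, Ltc4s, Alox5 and Lta4h) lower in arthritic mice, where 19.5% of all features were called higher and 22.7% lower. For 1 gene, Ptgs2, all 6 arthritic arrays lay above all 6 control arrays, which 7.44% of all features did. For 3 genes, Hpgd, Ltc4s and Alox5, all 6 arthritic arrays lay below all 6 control arrays, which 12.1% of all features did.

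**Figure D1:**
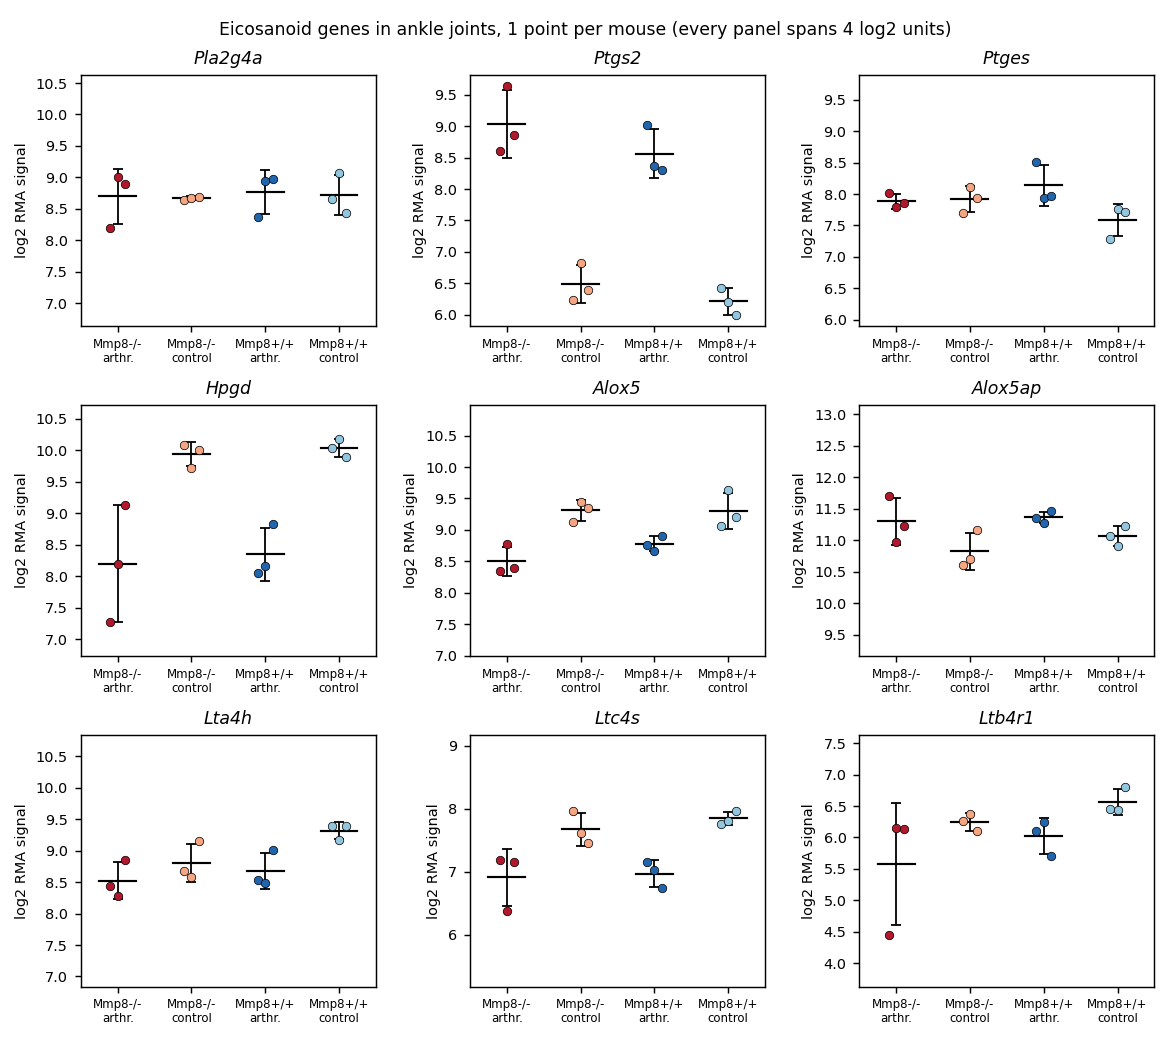
Log2 RMA signal (vertical axis) of the 9 genes in each of the 4 groups (horizontal axis), 1 point per mouse, with the group mean as a horizontal line and the SD as an error bar (n = 3). Ptgs2 sits at 8.31 to 9.64 in the 6 arthritic mice and at 6.00 to 6.83 in the 6 control mice, and Hpgd, Ltc4s and Alox5 are separated the other way. Ltb4r1 has 1 low arthritic Mmp8-/- array, at 4.45.

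Pla2g4a encodes cytosolic phospholipase A2 alpha, which releases the arachidonic acid that both branches use. Its log2 signal was 8.20, 9.01 and 8.89 in arthritic Mmp8-/- mice, 8.64, 8.68 and 8.69 in Mmp8-/- controls, 8.37, 8.95 and 8.98 in arthritic Mmp8+/+ mice, and 8.65, 9.07 and 8.44 in Mmp8+/+ control mice. In each genotype the lowest arthritic array lay below and the middle arthritic array above or between the controls, so the groups overlapped. The difference was 0.03 in Mmp8-/- mice (95% interval -0.47 to 0.53) and 0.05 in Mmp8+/+ mice (95% interval -0.45 to 0.54) on the log2 scale. These intervals leave room for a change of up to about 0.5 in either direction.

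Ptgs2 encodes cyclooxygenase-2, the form of the enzyme that inflammatory stimuli induce. Because it had the largest change of the 9 genes, the 250 bases before its annotated start are shown, on the plus strand at chr1:150099781-150100030 of GRCm38.p6, as RefSeq gives them, together with a short stretch just past the start at chr1:150100038-150100061. Capitals mark, in order, a GC box (GGGCGG), a C/EBP motif (TTGCNNAA) and an E-box (CACGTG).
Ptgs2 upstream: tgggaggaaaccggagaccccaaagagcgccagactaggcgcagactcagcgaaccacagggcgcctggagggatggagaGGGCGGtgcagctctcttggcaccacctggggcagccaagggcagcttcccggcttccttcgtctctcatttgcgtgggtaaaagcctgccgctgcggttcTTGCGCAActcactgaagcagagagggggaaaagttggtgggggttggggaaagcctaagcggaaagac
Ptgs2 E-box: ccactacgtCACGTGgagtccgct
The first 2 motifs begin at bases -170 and -69 relative to the start and the third at base 17, and they do not overlap. Motifs were searched as exact letters on both strands in windows of 300 bases, from 250 before to 50 after each start, and a match is a description of the letters. Such windows were matched for 8 of the 9 measured genes, with a pair of windows for Pla2g4a. Ptgs2 was the only one of the 8 whose window held the E-box or the C/EBP motif, which 7.15% and 10.8% of the 32851 windows of the genome-wide table held. The GC box, found in 35.66% of all windows, was also in those of Ptges, Hpgd, Alox5 and Ltb4r1. Neither the NF-kappaB motif (GGGNN followed by TTTCC) nor the AP-1 motif (TGANTCA), in 1.63% and 7.81% of all windows, was matched in any of the 9 windows.

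The Ptgs2 signal was 8.61, 9.64 and 8.86 in arthritic Mmp8-/- mice, 6.24, 6.83 and 6.40 in Mmp8-/- controls, 9.01, 8.37 and 8.31 in arthritic Mmp8+/+ mice, and 6.43, 6.21 and 6.00 in Mmp8+/+ control mice. All arthritic arrays were high and all control arrays low, with a gap of over 1 log2 unit between the lowest arthritic and the highest control array. Group means were 9.03 ± 0.54, 6.49 ± 0.30, 8.56 ± 0.39 and 6.21 ± 0.21 in the same order of groups (SD, n = 3 each). Arthritic mice exceeded controls by 2.54 in Mmp8-/- mice (SE 0.26, 5.83-fold, adjusted p = 2.30e-05) and by 2.35 in Mmp8+/+ mice (SE 0.26, 5.10-fold, adjusted p = 4.05e-05). Among the 15977 genes tested this was rise number 20 in Mmp8-/- mice and number 27 in Mmp8+/+ mice. The gene passed in both genotypes under each of the 22 alternatives of processing, with differences of 2.24 to 2.76 in Mmp8-/- mice and 2.13 to 2.48 in Mmp8+/+ mice. Without the 3 doubted arrays the differences were 2.63 (adjusted p = 0.00282) and 2.46 (adjusted p = 0.000302).

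Ptges encodes microsomal prostaglandin E synthase-1, an inducible enzyme that works downstream of cyclooxygenase-2. It read 8.02, 7.79 and 7.85 in arthritic Mmp8-/- mice, 7.70, 8.11 and 7.94 in Mmp8-/- controls, 8.51, 7.93 and 7.97 in arthritic Mmp8+/+ mice, and 7.29, 7.76 and 7.71 in Mmp8+/+ control mice. The groups overlapped in Mmp8-/- mice, whereas the arthritic arrays all lay above the control arrays in Mmp8+/+ mice. Neither difference passed, being -0.03 in Mmp8-/- mice (SE 0.19, adjusted p = 0.918) and 0.55 in Mmp8+/+ mice (SE 0.19, adjusted p = 0.0577). The second passed with array weights (adjusted p = 0.0239), after subtraction of each array's mean (adjusted p = 0.0408) and after a further quantile normalization (adjusted p = 0.0306). The sign of the first changed with the scaling, to 0.04 after subtraction of array means and 0.14 after quantile normalization.

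Hpgd encodes 15-hydroxyprostaglandin dehydrogenase, the enzyme that begins the breakdown of prostaglandin E2. As the gene with the deepest fall of the 9, its upstream bases are shown too, on the plus strand at chr8:56294302-56294551, with a stretch over the start at chr8:56294547-56294570 (GRCm38.p6, RefSeq). Capitals mark a GC box, read on the other strand as CCGCCC, and a match to the letters of the TATA box motif (TATAAA), which lies past the start.
Hpgd upstream: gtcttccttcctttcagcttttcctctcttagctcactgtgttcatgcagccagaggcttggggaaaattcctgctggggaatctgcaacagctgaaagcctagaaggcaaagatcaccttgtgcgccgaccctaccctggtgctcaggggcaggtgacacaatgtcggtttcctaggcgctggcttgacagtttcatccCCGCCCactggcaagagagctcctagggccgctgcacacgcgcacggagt
Hpgd TATA box: ggagtgggcTATAAAagctgctgc
Relative to the annotated start, the GC box begins at base -50 and the TATAAA letters at base 5. TATAAA was in 13.62% of all windows and, among the measured genes, also in 1 of the windows of Pla2g4a.

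The Hpgd signal was 7.27, 8.19 and 9.13 in arthritic Mmp8-/- mice, 10.09, 9.72 and 10.01 in Mmp8-/- controls, 8.05, 8.16 and 8.83 in arthritic Mmp8+/+ mice, and 10.04, 10.18 and 9.89 in Mmp8+/+ control mice. Every arthritic array was below every control array, and the arthritic arrays were spread more widely than the controls. The means were 8.20 ± 0.93, 9.94 ± 0.19, 8.35 ± 0.42 and 10.04 ± 0.15 in that order of groups (SD, n = 3 each). Arthritic mice differed from controls by -1.74 in Mmp8-/- mice (SE 0.34, 3.34-fold lower, adjusted p = 0.00309) and by -1.69 in Mmp8+/+ mice (SE 0.34, 3.22-fold lower, adjusted p = 0.00358). Ranked by fall among 15977 genes, Hpgd stood at number 199 in Mmp8-/- mice and 240 in Mmp8+/+ mice. Without the 3 doubted arrays the difference in Mmp8-/- mice was -1.81 and no longer passed (adjusted p = 0.102), and that in Mmp8+/+ mice was -1.69 (adjusted p = 0.0236). Averaged over genotypes and without those arrays, it was -1.75 (adjusted p = 0.00406).

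Ptges and Hpgd act at opposite ends of the life of prostaglandin E2, and their difference within each array was compared between arthritic and control mice. The log2 signal of Ptges minus that of Hpgd was 1.97 higher in arthritic mice averaged over genotypes, 1.71 higher in Mmp8-/- mice and 2.24 higher in Mmp8+/+ mice. An exact permutation test, two-sided and with labels exchanged within genotype over 400 arrangements, gave p = 0.005, the smallest it can give, and 0.0075 after adjustment over the 3 pairs tested. This shows an unequal change of the 2 transcripts and does not set their levels against each other. With the 3 doubted arrays left out, a single Mmp8-/- control array remained, and the change of 1.92 did not pass after adjustment.

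**Figure D2:**
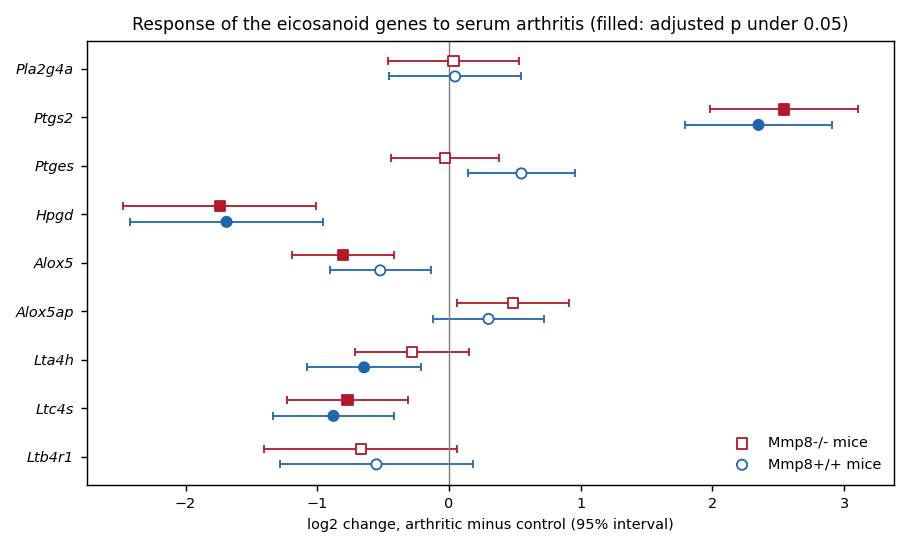
Log2 change between arthritic and control mice (horizontal axis) for the 9 genes (vertical axis), with squares for Mmp8-/- mice and circles for Mmp8+/+ mice, 95% intervals as bars, and filled symbols for an adjusted p under 0.05. Ptgs2 is at 2.54 and 2.35, Hpgd at -1.74 and -1.69, and the intervals of the 2 genotypes overlap for every gene.

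Alox5 encodes 5-lipoxygenase, the enzyme that starts leukotriene synthesis in neutrophils, mast cells and macrophages. Its signal was 8.35, 8.77 and 8.39 in arthritic Mmp8-/- mice, 9.13, 9.45 and 9.35 in Mmp8-/- controls, 8.76, 8.67 and 8.91 in arthritic Mmp8+/+ mice, and 9.07, 9.63 and 9.20 in Mmp8+/+ control mice. The arthritic arrays were the lower ones in both genotypes, without overlap. Alox5 was 1.75-fold lower in arthritic Mmp8-/- mice (log2 -0.81, SE 0.18, adjusted p = 0.00696), and the difference of -0.52 in Mmp8+/+ mice did not pass (SE 0.18, adjusted p = 0.0561). Without arthritic Mmp8-/- replicate 1 or replicate 2, which enter the shared estimate of spread, the difference in Mmp8+/+ mice passed (adjusted p = 0.0465 and 0.0452). Without the 3 doubted arrays, which left a single Mmp8-/- control array, the difference in Mmp8-/- mice was -0.85 and did not pass. Averaged over genotypes, Alox5 differed by -0.66 (adjusted p = 0.00112), and by -0.74 without the 3 doubted arrays.

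Alox5ap encodes FLAP, the membrane protein that presents arachidonic acid to 5-lipoxygenase. The values were 11.71, 10.97 and 11.23 in arthritic Mmp8-/- mice, 10.60, 10.71 and 11.16 in Mmp8-/- controls, 11.36, 11.28 and 11.46 in arthritic Mmp8+/+ mice, and 11.07, 10.91 and 11.22 in Mmp8+/+ control mice. Arthritic and control arrays overlapped in Mmp8-/- mice and were apart, arthritic higher, in Mmp8+/+ mice. Neither difference passed, with 0.48 in Mmp8-/- mice (adjusted p = 0.0919) and 0.30 in Mmp8+/+ mice (adjusted p = 0.298). That in Mmp8-/- mice passed without Mmp8-/- control replicate 3 (0.65, adjusted p = 0.0468) or without arthritic Mmp8-/- replicate 2 (0.65, adjusted p = 0.0397). The average over genotypes passed at 0.39 (adjusted p = 0.0370), but not when any of 7 of the 12 arrays was left out. These were Mmp8-/- arthritic replicate 1 (0.29, adjusted p = 0.0835), Mmp8-/- control replicates 1 (0.34, adjusted p = 0.0939) and 2 (0.36, adjusted p = 0.0774), Mmp8+/+ arthritic replicates 1 (0.39, adjusted p = 0.0643) and 3 (0.37, adjusted p = 0.0753), and Mmp8+/+ control replicates 1 (0.39, adjusted p = 0.0634) and 2 (0.35, adjusted p = 0.0828). It was 0.23 without the 3 doubted arrays (adjusted p = 0.422), 0.34 without the 2 Xist arrays (adjusted p = 0.140) and also did not pass by ordinary linear regression (adjusted p = 0.0689).

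The enzyme gene Alox5 and its partner Alox5ap thus had differences of opposite sign. Within arrays, Alox5 minus Alox5ap was 1.06 lower in arthritic than in control mice averaged over genotypes, with a change of -1.29 in Mmp8-/- mice and -0.82 in Mmp8+/+ mice (exact permutation test, two-sided, p = 0.005, the smallest of the design, adjusted p = 0.0075). The change was -0.97 without the 3 doubted arrays and likewise did not pass the exact permutation test after adjustment.

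Lta4h encodes leukotriene A4 hydrolase, which completes leukotriene B4. It read 8.44, 8.28 and 8.85 in arthritic Mmp8-/- mice, 8.68, 8.58 and 9.15 in Mmp8-/- controls, 8.53, 8.49 and 9.01 in arthritic Mmp8+/+ mice, and 9.40, 9.17 and 9.39 in Mmp8+/+ control mice. Arthritic arrays lay below control arrays in Mmp8+/+ mice, and the groups overlapped in Mmp8-/- mice. The difference was -0.28 in Mmp8-/- mice (adjusted p = 0.319) and -0.64 in Mmp8+/+ mice (SE 0.20, adjusted p = 0.0385). The second was lost on leaving out Mmp8+/+ arthritic replicate 1 (adjusted p = 0.132) or 2 (0.128), or Mmp8+/+ control replicate 1 (0.117), 2 (0.0554) or 3 (0.0827), and without the 3 doubted arrays (-0.61, adjusted p = 0.134). It was also lost after quantile normalization (-0.53, adjusted p = 0.0764) and by ordinary linear regression (adjusted p = 0.0849). The average over genotypes was -0.46 (adjusted p = 0.0194), and it did not pass without the 2 Xist arrays (-0.47, adjusted p = 0.0583) or after quantile normalization (-0.32, adjusted p = 0.0827).

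Ltc4s encodes leukotriene C4 synthase, a source of cysteinyl leukotrienes in mast cells, eosinophils and macrophages. The signal was 7.19, 6.38 and 7.16 in arthritic Mmp8-/- mice, 7.96, 7.62 and 7.45 in Mmp8-/- controls, 7.15, 7.02 and 6.74 in arthritic Mmp8+/+ mice, and 7.76, 7.81 and 7.97 in Mmp8+/+ control mice. All 6 arthritic arrays were below all 6 control arrays. The change was -0.77 in Mmp8-/- mice (SE 0.21, 1.71-fold lower, adjusted p = 0.0220) and -0.88 in Mmp8+/+ mice (SE 0.21, 1.84-fold lower, adjusted p = 0.0113). In Mmp8-/- mice the call was lost without arthritic replicate 2 (-0.51, adjusted p = 0.0680), control replicate 1 (-0.63, adjusted p = 0.106) or control replicate 2 (-0.80, adjusted p = 0.0506), and without the 3 doubted arrays (-0.54, adjusted p = 0.459). In Mmp8+/+ mice it was lost without arthritic replicate 3 (-0.76, adjusted p = 0.0502). Averaged over genotypes, Ltc4s differed by -0.82 (adjusted p = 0.000853), and by -0.73 without the 3 doubted arrays. Set against Lta4h, the other branch from leukotriene A4, the within-array change of Ltc4s was -0.36, which the exact permutation test did not separate from 0 (two-sided p = 0.12, adjusted p = 0.12).

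Ltb4r1 encodes BLT1, the high-affinity receptor of leukotriene B4 on neutrophils and other leukocytes. Its values were 4.45, 6.15 and 6.13 in arthritic Mmp8-/- mice, 6.26, 6.38 and 6.10 in Mmp8-/- controls, 6.11, 6.25 and 5.71 in arthritic Mmp8+/+ mice, and 6.46, 6.44 and 6.81 in Mmp8+/+ control mice. The first arthritic Mmp8-/- array was far below the other 11, and only in Mmp8+/+ mice were arthritic and control arrays apart, the arthritic ones lower. The differences of -0.67 in Mmp8-/- mice (adjusted p = 0.165) and -0.55 in Mmp8+/+ mice (adjusted p = 0.267) did not pass. Without the low array, which enters the shared estimate of spread, they were -0.10 (adjusted p = 0.752) and -0.55. The second then passed with its difference unchanged (SE 0.17 against 0.34, adjusted p = 0.0316). Averaged over genotypes, Ltb4r1 differed by -0.61 and did not pass (adjusted p = 0.0553), while it passed in 4 of 21 alternatives.

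No difference between genotypes passed for any of the 9 genes, in arthritic mice, in control mice or as an interaction, and the lowest adjusted p was 0.9997. At an unadjusted p under 0.05, 0 of the 9 genes differed between arthritic Mmp8-/- and arthritic Mmp8+/+ mice, where 2.83% of all features did. Differences in arthritic mice ran from -0.45 for Ltb4r1 to 0.47 for Ptgs2. The 95% interval of Ptgs2 was -0.09 to 1.03 (unadjusted p = 0.0926), which leaves room for a difference of about 1 log2 unit as well as for none.

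In control mice 1 gene, Lta4h, had an unadjusted p under 0.05, as did 3.23% of all features. It was lower in Mmp8-/- than in Mmp8+/+ control mice by a log2 difference of -0.52 (95% interval -0.95 to -0.08, unadjusted p = 0.0226). This difference was -0.14 without the 3 doubted arrays. As an interaction of genotype and arthritis 1 gene, Ptges, had an unadjusted p under 0.05, beside 3.12% of all features, with -0.58 (95% interval -1.16 to -0.004, unadjusted p = 0.0486). This interaction was -0.45 without the 3 doubted arrays. The interaction of Ptges did not pass after adjustment, so its response is not shown to differ between the genotypes. For Ptgs2 the interaction was 0.19 (95% interval -0.60 to 0.99).

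Around these genes stand the other phospholipases, synthases, receptors and metabolic enzymes of the pathway, of which 65 were listed in 7 groups by role, 60 had a feature and 57 were tested. In Mmp8-/- mice 7 were higher, 12 lower and 38 did not pass, with a median log2 change of -0.05. In Mmp8+/+ mice 9 were higher, 13 lower and 35 did not pass, with a median of 0.12. The medians over all features were close to 0, and the shares called over all features are those given above for each genotype.

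In the group of other phospholipases, which also held a phospholipase receptor gene, 17 genes were tested. Of these, 2 were higher and 3 lower with arthritis in Mmp8-/- mice, while 3 were higher and 3 lower in Mmp8+/+ mice. Plaat3, an adipose phospholipase also called AdPLA, was lower by -1.53 in Mmp8-/- mice (adjusted p = 8.44e-05) and -1.52 in Mmp8+/+ mice (adjusted p = 8.43e-05). Pla2g7, which encodes the plasma enzyme that degrades platelet-activating factor, was higher by 0.95 (adjusted p = 0.0237) and 1.12 (adjusted p = 0.0102). Pla2g12a, a secreted phospholipase, was lower by -0.71 (adjusted p = 0.0353) and -1.21 (adjusted p = 0.00185) in the same 2 comparisons.

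Of 7 other terminal synthases, 3 were lower in each genotype, and 1 was higher in Mmp8+/+ mice and 0 in Mmp8-/- mice. Ptgis, prostacyclin synthase, fell by 1.21 in Mmp8-/- mice (adjusted p = 0.000850) and by 1.34 in Mmp8+/+ mice (adjusted p = 0.000369). Tbxas1, thromboxane A synthase, fell by 0.82 (adjusted p = 0.00995) and 1.06 (adjusted p = 0.00186), and Hpgds, the haematopoietic prostaglandin D synthase, fell by 0.86 (adjusted p = 0.0417) and 0.92 (adjusted p = 0.0324). The synthase gene called higher in Mmp8+/+ mice was Ptgds, the lipocalin-type prostaglandin D synthase (0.68, adjusted p = 0.0396), with -0.07 in Mmp8-/- mice (adjusted p = 0.844). The calls of the D synthases were less stable than those of Ptgis and Tbxas1, since that of Ptgds was lost in 12 of 22 alternatives, and those of Hpgds in 14 in Mmp8-/- mice and 8 in Mmp8+/+ mice.

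Among 8 prostanoid receptors tested, 2 were higher and 1 lower with arthritis in Mmp8-/- mice, while 1 was higher and 1 lower in Mmp8+/+ mice. Ptger3, a receptor of prostaglandin E2, was lower by -0.95 in Mmp8-/- mice (adjusted p = 0.00592) and -0.96 in Mmp8+/+ mice (adjusted p = 0.00532). Ptgfr, the receptor of prostaglandin F2 alpha, was higher by 0.64 (adjusted p = 0.0164) and 0.78 (adjusted p = 0.00500). Ptger1 was higher in Mmp8-/- mice (0.51, adjusted p = 0.0389) and had a difference of -0.01 in Mmp8+/+ mice (adjusted p = 0.979), whose sign turned under other scalings. The interaction of Ptger1 did not pass.

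Of 6 genes of transport and inactivation, 1 was higher and 0 lower in Mmp8-/- mice, and 1 was higher and 1 lower in Mmp8+/+ mice. Ptgr1, prostaglandin reductase 1, was higher in Mmp8-/- mice (0.92, adjusted p = 0.0103) and read 0.64 in Mmp8+/+ mice (adjusted p = 0.0557). The Mmp8-/- value of Ptgr1 was 0.48 without the 3 doubted arrays and did not pass (adjusted p = 0.468), and the Mmp8+/+ value passed in 7 of 22 alternatives (lowest adjusted p = 0.0293). Akr1c18 was at 0.83 in Mmp8-/- mice (adjusted p = 0.0549) and was called in Mmp8+/+ mice (0.98, adjusted p = 0.0301). This gene was dim, with log2 signals of 4.36 to 5.59 in control arrays and 5.47 to 6.19 in arthritic arrays. Most control arrays lay below the signal threshold of 5.3. The gene thus entered the test through its arthritic arrays, and its calls are not independent of that filter. The Mmp8-/- value passed in 6 of 21 alternatives, among them at 1.48 without the 3 doubted arrays (adjusted p = 0.0241) and at 1.12 without the Xist arrays (adjusted p = 0.0197), and the Mmp8+/+ call was lost in 6. Ptgr2 was at -0.36 in Mmp8-/- mice (adjusted p = 0.128) and was called lower in Mmp8+/+ mice (-0.63, adjusted p = 0.0172). Neither of the 2 other leukotriene receptors tested, Cysltr1 and Gpr17, passed in either genotype.

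Of 9 genes of leukotriene export and metabolism, 2 were higher and 2 lower with arthritis in Mmp8-/- mice, while 3 were higher and 2 lower in Mmp8+/+ mice. Dpep2, a dipeptidase that acts on leukotriene D4, was higher by 0.83 in Mmp8-/- mice (adjusted p = 0.0133) and 1.10 in Mmp8+/+ mice (adjusted p = 0.00230). Mgst2, a microsomal enzyme that can also make leukotriene C4, was lower by -0.84 (adjusted p = 0.0403) and -1.11 (adjusted p = 0.0109), and Mgst3 by -0.93 in Mmp8+/+ mice (adjusted p = 0.0164), with -0.57 in Mmp8-/- mice (adjusted p = 0.100).

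The last group holds 8 genes of other lipoxygenases and lipid mediators, of which 3 were lower and 0 higher in each genotype. Ephx2, soluble epoxide hydrolase, fell by 1.52 in Mmp8-/- mice (adjusted p = 0.00141) and by 1.47 in Mmp8+/+ mice (adjusted p = 0.00170). Alox12, the platelet-type 12-lipoxygenase, fell by 1.22 (adjusted p = 0.00621) and 1.73 (adjusted p = 0.000476). Alox15, the 12/15-lipoxygenase of mouse macrophages and eosinophils, fell by 1.23 in Mmp8+/+ mice (adjusted p = 0.00482), with -0.59 in Mmp8-/- mice (adjusted p = 0.114).

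Several of these calls were lost when single arrays were left out. A lost call did not always come with a smaller difference, as that of Ptgds in Mmp8+/+ mice stayed at 0.68 without each of the 3 Mmp8-/- controls. Without Mmp8-/- control replicate 1, 4 of the 57 genes were called higher and 7 lower in that genotype, and without Mmp8-/- control replicate 2 the counts were 2 and 6. In Mmp8+/+ mice 5 were higher without arthritic replicate 1 or without control replicate 2. In Mmp8-/- mice, leaving out control replicate 1 ended those of Mgst2, Dpep2, Pla2g7, Pla2g12a, Ptger1 and Hpgds (adjusted p 0.0594 to 0.154), control replicate 2 those of Mgst2, Pla2g12a, Ptgfr, Ptger1, Ptgr1 and Hpgds (0.0506 to 0.100), and control replicate 3 those of Mgst2, Ptgfr and Ptger1 (0.0591 to 0.0732). Leaving out arthritic replicate 1 ended those of Pla2g12a, Ptger1 and Hpgds (0.103 to 0.173), replicate 2 those of Mgst2, Pla2g7, Pla2g12a and Ptgfr (0.0522 to 0.135), and replicate 3 those of Mgst2 and Ptger1 (0.0880 and 0.0601). The call of Hpgds in Mmp8-/- mice also ended without Mmp8+/+ arthritic replicate 1 or 3 or Mmp8+/+ control replicate 3 (0.0501 to 0.0524). In Mmp8+/+ mice those of Akr1c18 and Hpgds ended without arthritic replicate 1 or 3 or control replicate 2 or 3 (0.0501 to 0.128), those of Mgst3 and Ptgr2 without arthritic replicate 2 (0.0617 and 0.0761), Mgst3 without control replicate 3 (0.0527) and Ptgr2 without control replicate 1 (0.0788). That of Ptgds ended without Mmp8+/+ control replicate 1 (0.0707) or 2 (0.173), without Mmp8+/+ arthritic replicate 1 (0.115) or 2 (0.126), and without each of the 3 Mmp8-/- controls (0.0502 to 0.0517).

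More of these calls did not pass once the 3 doubted arrays were left out. In Mmp8-/- mice they were Ptgr1, Dpep2 (0.60, adjusted p = 0.414), Pla2g7 (0.82, 0.366), Pla2g12a (-0.57, 0.439), Mgst2 (-0.81, 0.393), Ptgfr (0.82, 0.144), Ptger1 (0.43, 0.474) and Hpgds (-0.53, 0.562). In Mmp8+/+ mice they were Pla2g7 (1.04, adjusted p = 0.0571), Mgst3 (-0.996, 0.0589), Ptgr2 (-0.55, 0.127), Hpgds (-1.05, 0.0600) and Ptgds (0.74, 0.112). Plaat3 and Ptgis passed in both genotypes under all 22 alternatives, whereas Ephx2, Alox12, Ptger3 and Tbxas1 failed once each, in Mmp8-/- mice without the 3 doubted arrays (adjusted p 0.0589 to 0.102).

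**Figure D3:**
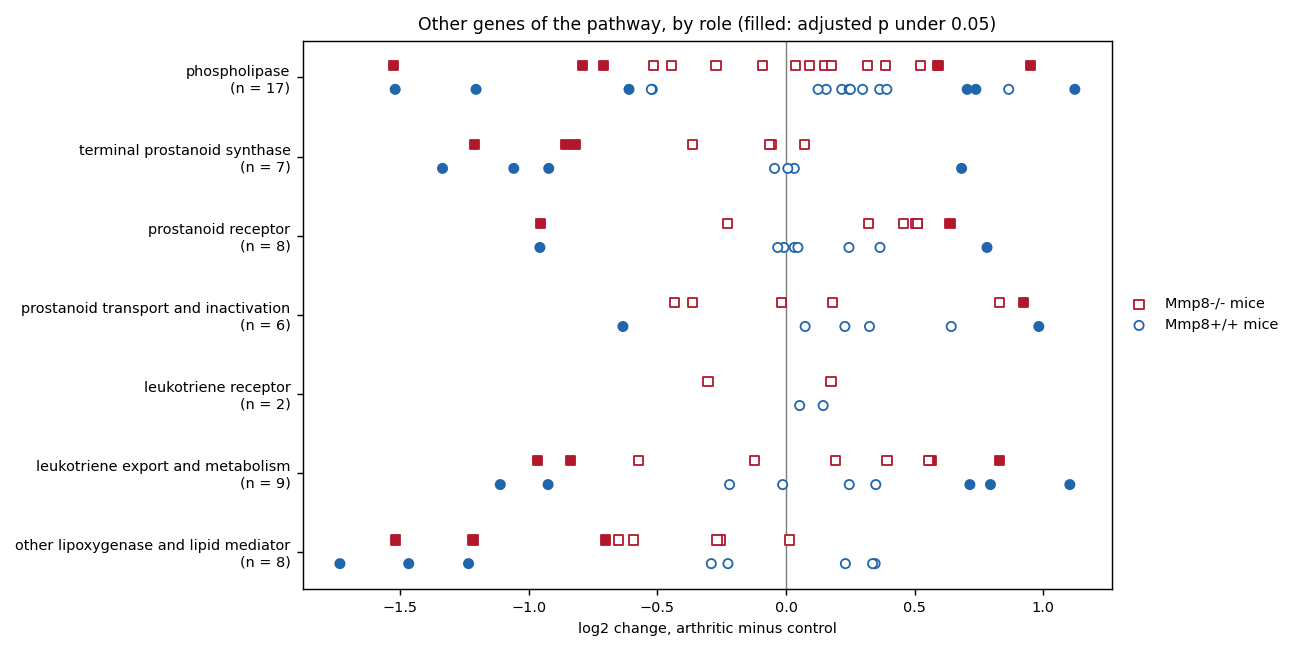
Log2 change between arthritic and control mice (horizontal axis) of the 57 other pathway genes, grouped by role (vertical axis, with the number of genes), with squares for Mmp8-/- mice and circles for Mmp8+/+ mice, filled where the adjusted p is under 0.05. Filled symbols stand on both sides of 0 for phospholipases and for leukotriene metabolism, and only below 0 for the other lipoxygenases and lipid mediators.

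Genes whose pattern over the 12 arrays was most like that of Ptgs2, Hpgd and Ltc4s were found by the root mean square difference of log2 signal after subtraction of each gene's mean, over 15976 other genes. For Ptgs2 these were Tnfaip6 (0.22 log2 units), a hyaluronan-binding protein of inflamed tissue, Csgalnact1 (0.31), an enzyme of chondroitin sulfate synthesis, and C1qtnf3 (0.37). For Hpgd they were Car3 (0.11), carbonic anhydrase 3 of muscle and fat, Glcci1 (0.26) and Bmp5 (0.28). Car3 read 10.94 to 12.56 in arthritic Mmp8-/- mice, 13.43 to 13.66 in Mmp8-/- controls, 11.75 to 12.30 in arthritic Mmp8+/+ mice and 13.42 to 13.51 in Mmp8+/+ controls. For Ltc4s they were Camk2n1 (0.15), Il2rb (0.17) and Mpc1 (0.17). The arrays, their groups and their normalization are shared by all these points.

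The cell types that could carry these transcripts were read from marker lists. All 6 adipocyte markers with a feature, of 7 listed, were lower in both genotypes, as Hpgd was, with mean log2 signals of 7.09 to 7.71 in arthritic Mmp8-/- mice, 9.59 to 9.79 in Mmp8-/- controls, 7.23 to 7.67 in arthritic Mmp8+/+ mice and 8.94 to 10 in Mmp8+/+ controls. Their summed signals were 9.89 to 10.74, 12.54 to 12.92, 10.23 to 10.65 and 12.11 to 12.99 on the log2 scale, in that order of groups. Of 5 osteoblast markers 4 were lower in each genotype, and of 6 skeletal muscle markers 3 were lower in Mmp8-/- mice and 6 in Mmp8+/+ mice. The part of these cells in the changes of Hpgd, Plaat3 and the other lowered genes was not tested.

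Platelet and megakaryocyte markers, of which 6 of 8 had a feature, were read beside Alox12 and Tbxas1. None was higher, and 2 were lower in Mmp8-/- mice and 4 in Mmp8+/+ mice, with means of 8.16 to 8.47 in arthritic Mmp8-/- mice, 8.44 to 9.22 in Mmp8-/- controls, 7.73 to 8.49 in arthritic Mmp8+/+ mice and 9.31 to 9.43 in Mmp8+/+ controls. Their summed log2 signals were 11.18 to 11.47, 11.58 to 12.62, 10.45 to 11.65 and 12.56 to 12.92 in that order. Their part in those 2 results was not tested.

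Marker lists of the leukocytes in which the leukotriene genes are best known were read in the same way. Of 14 neutrophil markers 3 were higher and 0 lower with arthritis in Mmp8-/- mice, while 3 were higher and 2 lower in Mmp8+/+ mice. The neutrophil means were 10.02 to 10.47 in arthritic Mmp8-/- mice, 9.51 to 10.45 in Mmp8-/- controls, 10.24 to 10.67 in arthritic Mmp8+/+ mice and 10.22 to 10.49 in Mmp8+/+ controls, and their summed log2 signals were 14.42 to 14.88, 14.15 to 15.05, 14.60 to 14.96 and 14.85 to 15.09 in that order. Of 10 macrophage markers 2 were higher and 1 lower in each genotype, and their means overlapped between arthritic and control mice in both, as did their summed log2 signals of 13.11 to 13.49, 13.25 to 13.32, 13.20 to 13.41 and 13.04 to 13.35. Of 8 mast cell markers tested, 1 was higher and 2 lower in Mmp8-/- mice, with means over the 10 listed of 6.65 to 7.16 in arthritic mice and 7.17 to 7.48 in controls, and 1 was higher and 1 lower in Mmp8+/+ mice, with 6.88 to 7.04 and 6.98 to 7.51. The summed log2 signal of the mast cell list was 11.33 to 11.86 in arthritic Mmp8-/- mice, 11.49 to 11.81 in Mmp8-/- controls, 11.51 to 11.70 in arthritic Mmp8+/+ mice and 11.11 to 11.78 in Mmp8+/+ controls. The summed signals of the list overlapped between arthritic and control mice in both genotypes, whereas its means overlapped in Mmp8+/+ mice and were all lower with arthritis in Mmp8-/- mice. The part of these cells in the changes of Ltc4s, Alox5 and Ptgs2 was not tested. Of 8 synovial fibroblast markers, 2 were higher and 2 lower with arthritis in Mmp8-/- mice, while 3 were higher and 0 lower in Mmp8+/+ mice. Keratinocyte markers, 8 in number, had 2 lower in Mmp8-/- mice and 0 in Mmp8+/+ mice. Keratinocyte means were 7.39 to 7.75 in arthritic Mmp8-/- mice and 8.49 to 9.42 in arthritic Mmp8+/+ mice, without overlap. In controls they were 7.64 to 9.2 in Mmp8-/- mice and 7.8 to 9.11 in Mmp8+/+ mice. The part of these cells in the genotype comparisons was not tested.

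**Figure D4:**
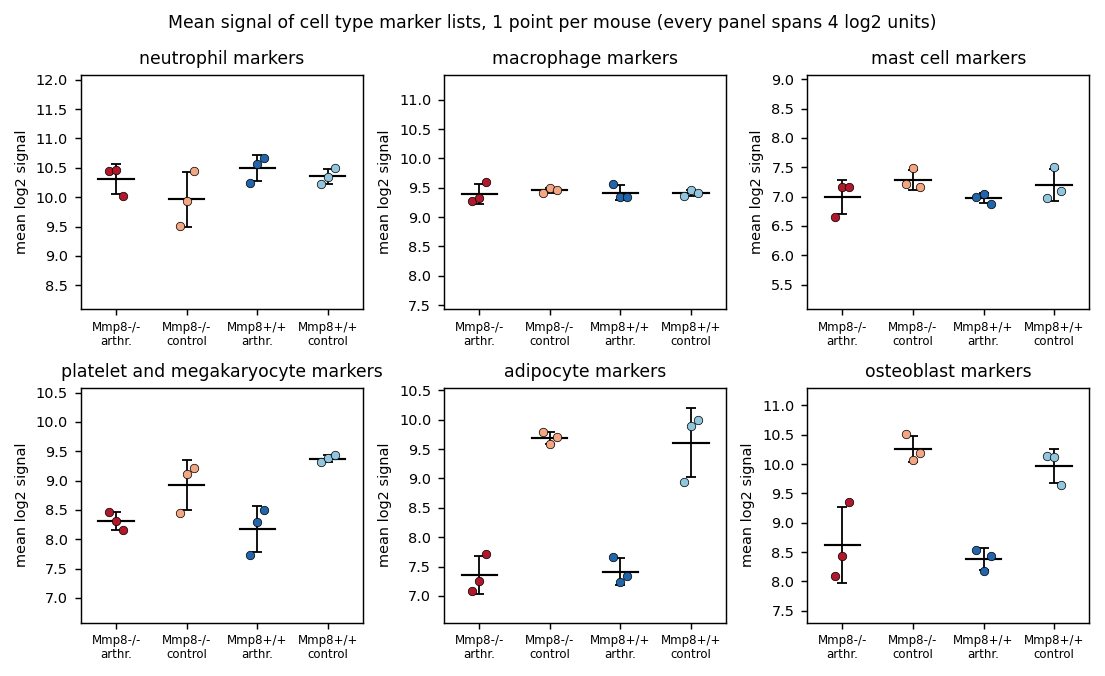
Mean log2 signal (vertical axis) of 6 of the 11 cell type marker lists in each group (horizontal axis), 1 point per mouse, with the group mean as a line and the SD as an error bar (n = 3). Adipocyte markers are at 7.09 to 7.71 in the 6 arthritic mice and at 8.94 to 10 in the 6 control mice, while the macrophage means of the arthritic and control mice overlap.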

How the data were processed

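RNA from ankle joints of 12 mice was hybridised to Affymetrix Mouse Gene 1.0 ST arrays. The authors deposited log2 values per feature after background correction, quantile normalization and RMA summary, made with Partek per the labels, with no versions given. RMA can narrow the differences of dim features, and it was not repeated here. Features were named from the array annotation, which gave 1 symbol for 21789 of 28853 features, several for 1621 and none for 5443. None (0) of the columns of values was left out.

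Tested were the 18479 features with a symbol and a mean log2 signal of at least 5.3. One linear model with 4 group means was fitted to all 12 arrays (R 4.3.3, limma 3.58.1 and, for array weights, statmod 1.5.0), leaving 8 residual degrees of freedom. Calls were made at a Benjamini-Hochberg adjusted p under 0.05. Adjusted p-values in the text are from limma and two-sided unless an exact permutation test is named. Errors are SE for differences and SD for group means. The fit was tested on simulated data. The 3 mice per group limit the precision. The labels number no replicates, so numbers follow the order of the arrays and pair nothing.

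The members, the lists of pathway genes and the markers were chosen with earlier results of these data known. Named were all measured members, from each role list up to 3 genes with the largest mean change among those called in at least 1 genotype, and 3 genes of like pattern for each member called in both genotypes. Mmp8 and Xist served to check labels, and Car3 values, Ptgds and the remaining leukotriene receptors were named after their values were seen. A planned pair of Ptgs2 with Ptgs1 was not run, and 3 pairs were tested. Promoter windows come from RefSeq (GRCm38.p6). Alternatives were other tests, filters and scalings and the removal of arrays.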

Additional observations from a re-analysis of the deposited data

How the results depend on the processing

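The calls of Ptgs2 kept direction and passed in both genotypes under all 22 alternatives, and those of Hpgd under all but 1. The number of measured members called in Mmp8-/- mice was 1 without the 3 control arrays that went against their labels (2 by Xist, 1 by Mmp8), against 4 with all arrays. Features called over the whole array then numbered 485 in Mmp8-/- mice and 1715 in Mmp8+/+ mice, against 3997 and 3487. Of the other pathway genes 1 was higher and 2 lower in Mmp8-/- mice and 5 were higher in Mmp8+/+ mice. Fewer arrays were fitted there, and a further cause was not tested. Without the Xist arrays alone, 1726 and 1935 features were called, and 4 pathway genes were higher and 7 lower in Mmp8-/- mice.

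Leaving out single arrays gave 1850 to 4200 features called in Mmp8-/- mice and 2080 to 4314 in Mmp8+/+ mice, 2 to 8 pathway genes higher and 6 to 12 lower in Mmp8-/- mice, and 5 to 9 higher in Mmp8+/+ mice. Ordinary linear regression gave 3 pathway genes higher in Mmp8+/+ mice and 7 lower in Mmp8-/- mice, and limma on the 6 compared arrays gave 4 higher in Mmp8-/- mice. The changes of Ptges minus Hpgd (1.92) and Alox5 minus Alox5ap (-0.97) did not pass the exact permutation test after adjustment without the 3 arrays. A single Mmp8-/- control array remained there.

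The sign turned only for values that were not called. Ptger1 in Mmp8+/+ mice was 0.0070 with array weights, 0.041 after subtraction of array means, 0.10 after quantile normalization and -0.14 to 0.077 without single arrays. Ptges in Mmp8-/- mice was 0.035 and 0.14 under the 2 scalings and -0.14 to 0.064 without single arrays. Without single arrays Pla2g4a was -0.12 to 0.29 in Mmp8-/- mice, -0.095 to 0.25 in Mmp8+/+ mice and -0.039 to 0.17 on average, the genotype difference of Lta4h in arthritic mice was -0.32 to 0.012, and the interaction of Ptgs2 was -0.11 to 0.42, with -0.037 without the Xist arrays. The interaction of Lta4h, 0.36 with all arrays, was -0.019 without the 3 arrays. Ptgds in Mmp8-/- mice was 0.0086 with array weights, 0.00067 after subtraction of array means and -0.22 to 0.11 without single arrays. No measured member had a second feature, so that alternative gave no value. No paired analysis was possible because the labels number no replicates. With 3 arrays per group, some moderate changes within 1 genotype lay near the threshold. Examples are those of Alox5 and Lta4h in Mmp8+/+ mice and of Ltc4s in Mmp8-/- mice. Averaged over genotypes, Alox5 (-0.66, adjusted p = 0.00112) and Ltc4s (-0.82, adjusted p = 0.000853) passed, also on leaving out each of the 12 arrays in turn. Depth has no counterpart on arrays, where the number of arrays limits the precision.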
